A study of Mus musculus with 28 samples.

Results

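The potassium channel genes described here are the mouse genes whose symbol is Kcn followed by letters and a closing number, in the 4 tables of transcript abundance from WT and SIRT1mKO satellite cells, which repair skeletal muscle as its stem cells. The name rule matched 92 of the 22552 genes listed in each table, and 54 of the 92 reached a mean of 1 CPM (fragments as a share of the TMM-scaled library total) in at least 1 group. The family was chosen because Kcne4 and Kcnq5 were lower in SIRT1mKO cells, so its SIRT1mKO against WT values below are a description. Where counts of genes passing are given for these contrasts, they are no test of the family. Just outside the 1 CPM limit lay Kcnc2 (0.958 CPM) and Kcng1 (0.956 CPM), and just inside it Kcnq1 (1.02 CPM) and Kcns1 (1.08 CPM), each in its highest group. Kcnk15 and Kcnk9 had no fragment in any library.

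Potassium channels let potassium leave the cell and so set the resting membrane potential and end electrical excitation. Pore subunits form the channel, while accessory subunits change its opening, its trafficking or its current. In myoblasts, hyperpolarisation carried by inward rectifier and other potassium channels precedes the calcium entry that accompanies differentiation and fusion. In vascular smooth muscle, calcium-activated and ATP-sensitive potassium channels relax the cell.

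All animals were on a C57Bl/6 background. SIRT1mKO (KO) animals carry a Pax7cre/+ knock-in and a Sirt1 allele with floxed exon 4, so Cre comes from the Pax7 gene of satellite cells. WT is the genotype given for the controls, and the age, the number of animals and any pooling are not given in these sources. FI denotes FACS-sorted quiescent cells fresh from muscle, Cul proliferating cells in 20% fetal bovine serum with 12.5 ng/ml bFGF, and Diff cells moved to 2% horse serum for 24 hours. PolyA RNA-seq covered 5 WT and 3 KO libraries of FI cells, 4 and 2 of Cul cells, and 2 and 2 of Diff cells. They lie in an FI table (3 WT and 3 KO), a Cul table (2 and 2), a Diff table (2 and 2) and a table of WT states (2 WT_FI and 2 WT_Cul). Libraries are named by the index in their table, which the sources do not tie to a numbered sample.

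Libraries held 28010691 to 65324684 fragments in the FI table, 75674366 to 82590642 in Cul, 71858446 to 82825550 in Diff and 24254119 to 31643216 in WT states. Sirt1, whose gene total cannot set exon 4 apart, was at 47.1 to 82.0 CPM in WT_FI and 37.7 to 63.3 CPM in KO_FI of the FI table, at 62.2 and 66.9 against 33.8 and 46.9 CPM in Cul, and at 52.5 and 27.9 against 41.6 and 28.8 CPM in Diff. Some libraries stood apart in cell type markers. The summed level of 8 pericyte and smooth muscle markers was 22556 and 31840 CPM in WT_FI of the WT states table, against 3369 to 8155 CPM in WT_FI of the FI table, and that of 10 satellite cell markers was 2413 to 2610 against 5734 to 7636 CPM. In Diff, the summed level of 13 muscle differentiation genes was 375 and 14503 CPM in WT (indices 0 and 1) and 633 and 33075 CPM in KO. Both Diff groups thus held 1 library with low and 1 with high muscle gene expression. Fewer cells of a type and less RNA per cell cannot be told apart in these bulk samples.

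Promoter sequence is shown for Kcne4 and Kcnq5, which the family was chosen for, and for Kcnf1, which rose most in proliferating cells. Each run is the 200 bases before an annotated start in RefSeq on GRCm38.p6, which is not the build of the expression files (mm9). Capitals mark the E-box CAGCTG, the core that MyoD family proteins bind, and the E-box CACGTG. The TATAAA box was searched too, and all searches covered both strands.
Kcne4, chr1:78816711-78816910, plus strand: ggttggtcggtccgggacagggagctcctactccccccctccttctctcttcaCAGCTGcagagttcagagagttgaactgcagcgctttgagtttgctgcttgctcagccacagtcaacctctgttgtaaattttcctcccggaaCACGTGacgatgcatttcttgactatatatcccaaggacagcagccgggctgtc
Kcnq5, chr1:21962651-21962850, minus strand: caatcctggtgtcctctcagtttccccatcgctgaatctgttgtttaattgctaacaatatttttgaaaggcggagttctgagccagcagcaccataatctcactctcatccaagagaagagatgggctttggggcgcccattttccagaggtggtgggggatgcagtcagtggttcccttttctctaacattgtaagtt
Kcnf1, chr12:17176889-17177088, minus strand: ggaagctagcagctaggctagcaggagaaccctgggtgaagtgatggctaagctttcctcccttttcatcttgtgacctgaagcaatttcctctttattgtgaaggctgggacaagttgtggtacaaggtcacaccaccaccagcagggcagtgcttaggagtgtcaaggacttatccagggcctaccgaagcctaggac
The Kcne4 run held CAGCTG starting at position -147 and CACGTG starting at position -54 from the start site, and the other runs held none of the 3 motifs. A second Kcnq5 start (chr1:21961943-21962142, minus strand) held none either. RefSeq promoters were found for 67 of the 92 genes by symbol. CAGCTG was in 17.4% of their 92 promoters, CACGTG in 6.52% and TATAAA in 3.26%, against 10.9%, 5.26% and 9.96% of all 32851 promoters of the same length. These matches describe letters and not binding.

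By role, 40 of the 92 genes encode voltage-gated pore subunits (21 reached 1 CPM), 11 encode accessory subunits of voltage-gated channels (7), 15 encode inward rectifiers (9), 14 encode leak channels of the Kcnk class (7), and 12 encode calcium- or sodium-activated channels with their beta subunits (10). Levels of different genes are compared in the authors' FPKM, which divides by transcript length. In WT_FI of the FI table, Kcne4, an accessory subunit that inhibits several voltage-gated channels, was at 103 ± 13.6 FPKM (SD, n = 3) and Kcnj8, the pore of the vascular ATP-sensitive channel, at 91.8 ± 40.3 FPKM, the highest of the family. They did not differ beyond their spread. In KO_FI, Kcnj8 was at 79.8 ± 2.27 and Kcne4 at 28.3 ± 5.55 FPKM (n = 3).

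Proliferating and differentiating cells had another leading set. In WT_Cul of the Cul table, Kcnn4, the calcium-activated channel of intermediate conductance, at 24.5 ± 7.12 FPKM (SD, n = 2) and Kcnk5, a leak channel closed by acid, at 8.96 ± 4.79 FPKM were among the highest. Both were among the highest in KO_Cul too, at 23.8 ± 14.3 and 11.1 ± 7.05 FPKM. In WT_Diff, Kcnn4 was at 34.9 ± 21.0 and Kcnk5 at 3.68 ± 2.54 FPKM. In KO_Diff, Kcnn4 was at 24.6 ± 22.1 and Kcnn3, a small-conductance calcium-activated channel, at 7.91 ± 9.63 FPKM.

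**Figure D1:**
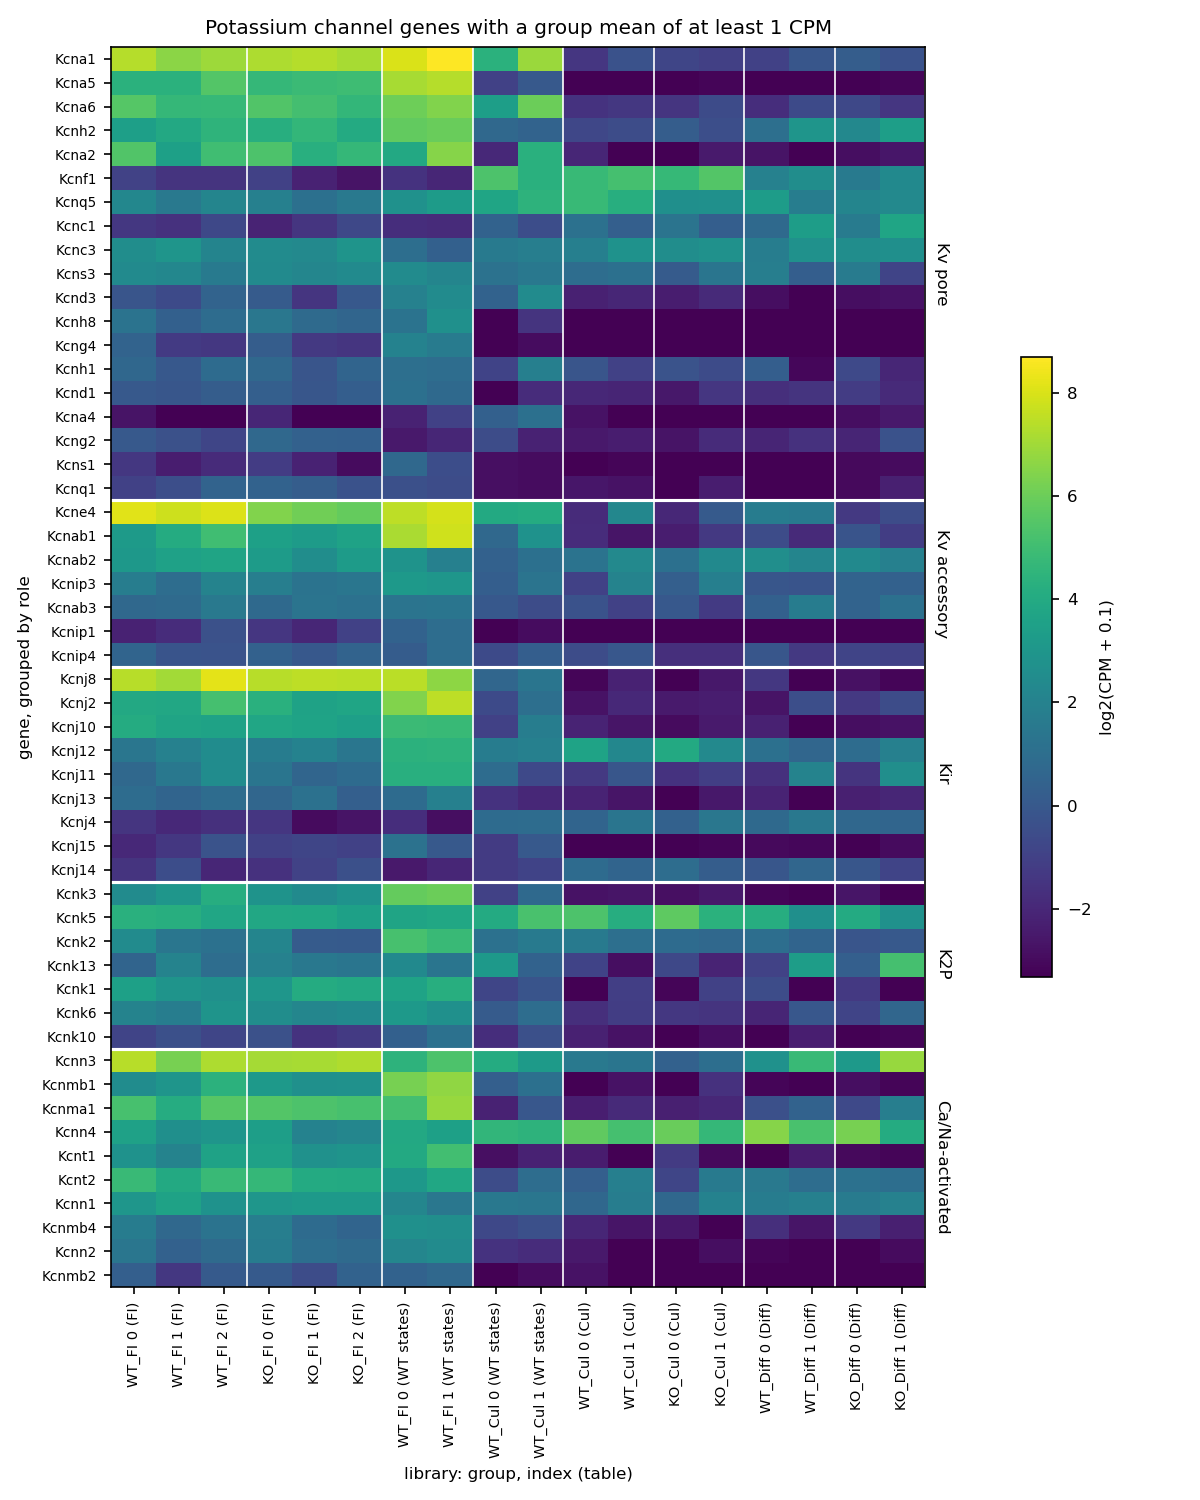
Each row is 1 of 52 potassium channel genes at 1 CPM or more, grouped by role, and each column 1 of the 18 libraries, with colour for log2(CPM + 0.1). Most rows are bright in the freshly isolated libraries on the left and dark in the proliferating and differentiating ones, while Kcnk5 and Kcnn4 are bright in the latter. Kcnf1 is dark in the freshly isolated libraries, bright in the proliferating ones and weaker in the differentiating ones.

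WT_Cul was compared with WT_FI in the WT states table to ask which channel genes differ between proliferation and quiescence. This contrast was not used to choose the family. Most of the potassium channel genes that passed the test fell in proliferating cells. Of 58 genes tested (34 had too few counts), 31 fell and 2 rose (edgeR quasi-likelihood test, Benjamini-Hochberg adjusted p under 0.05), against 16% and 12.6% of all 14680 genes tested (28.6% in either direction). The median log2 difference of the 58 was -2.81, against 0.06 over all genes, with 46 estimates below 0 and 12 above. Groups did not overlap for 41 genes lower and 8 higher in WT_Cul, against 35.9% and 34.9% of all genes. Genes tested had to reach a minimum count in some libraries, so the count does not speak for all 92. A gene that reached it through 1 group alone could pass in 1 direction only. Kcng4, Kcnip1 and Kcnmb2, with 1 fragment each in WT_Cul, and Kcnj3, with no fragment there, reached it through WT_FI and could only fall. Such genes are part of the 31 and of the median. Each arm held 2 libraries, and the labels do not say that they came from separate animals or cultures, so p-values reflect only library-to-library spread, possibly technical.

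Kcnf1 and Kcnj4 rose. Kcnf1 encodes an electrically silent subunit that modifies other voltage-gated channels. It had 0.237 and 0.146 CPM in the WT_FI libraries against 40.5 and 19.8 CPM in those of WT_Cul (log2 difference 7.29 ± 0.70 SE, edgeR adjusted p = 0.0096). Kcnj4, an inward rectifier, had 0.198 and 0.0364 CPM in the WT_FI libraries against 1.75 and 1.81 CPM in those of WT_Cul (log2 3.91 ± 0.88, adjusted p = 0.031 by edgeR). Both groups were apart for each gene. Without WT_FI index 1, Kcnj4 no longer passed (log2 3.15, edgeR adjusted p = 0.193).

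Among voltage-gated pore subunits, 8 of 23 tested fell and 1 rose, against 16% and 12.6% of all genes tested. Kcna5, a delayed rectifier of vascular smooth muscle and myoblasts, had 137 and 166 CPM in the WT_FI libraries against 0.398 and 0.938 CPM in those of WT_Cul (log2 difference -7.77 ± 0.61, edgeR adjusted p = 0.0096). The groups did not overlap. Kcng4, a silent subunit that joins other Kv pore subunits, had 3.91 and 3.10 CPM in the WT_FI libraries against 0 and 0.0313 CPM in those of WT_Cul (edgeR adjusted p = 0.014). WT_Cul held 1 fragment of Kcng4 against 184 in WT_FI, a 199-fold ratio with a 95% counting interval of 35.3 to 7908 (exact binomial). Kcnh2, the channel of the rapid cardiac repolarising current, fell from 56.3 and 61.6 to 1.59 and 1.31 CPM. Kcnq5 had 6.56 and 9.54 CPM in the WT_FI libraries against 13.3 and 21.9 CPM in those of WT_Cul (log2 1.15 ± 0.47, edgeR adjusted p = 0.122), apart but not past the threshold. Leaving out WT_Cul index 0 changed that call, and Kcnq5 then rose (log2 1.43, edgeR adjusted p = 0.021).

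Among accessory subunits, 5 of 8 tested fell and 0 rose, against 16% and 12.6% of all genes tested. Kcne4 had 183 and 244 CPM in the WT_FI libraries against 15.4 and 16.5 CPM in those of WT_Cul (log2 difference -3.72 ± 0.38, edgeR adjusted p = 0.0096). Both WT_FI libraries lay far above both WT_Cul libraries. Kcnab1, a beta subunit of Kcna channels, had 143 and 226 CPM in the WT_FI libraries against 1.55 and 6.82 CPM in those of WT_Cul (log2 -5.43 ± 0.86, edgeR adjusted p = 0.016). Kcnip1, a calcium-binding partner of transient outward channels, was low throughout, at 1.27 and 1.86 CPM against 0 and 0.0313 CPM (edgeR adjusted p = 0.017). WT_Cul held 1 fragment of it against 83 in WT_FI, a 89.8-fold ratio with a 95% counting interval of 15.7 to 3591 (exact binomial).

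Among inward rectifiers, 7 of 9 tested fell and 1 rose, against 16% and 12.6% of all genes tested. Kcnj8 had 173 and 100 CPM in the WT_FI libraries against 1.47 and 2.41 CPM in those of WT_Cul (log2 difference -6.11 ± 0.57, edgeR adjusted p = 0.0096). Kcnj2, a strong inward rectifier that holds muscle cells at rest, had 84.0 and 183 CPM in the WT_FI libraries against 0.558 and 2.00 CPM in those of WT_Cul (log2 -6.65 ± 0.87, edgeR adjusted p = 0.013). For both genes all WT_Cul values were far below the lower WT_FI value. Kcnj3, a G-protein-gated channel with every group mean under 1 CPM, had no fragment in either WT_Cul library and was at least 8.27-fold lower there (floor of 3 fragments per library). Kcnj11, the muscle and pancreatic pore of the ATP-sensitive channel, fell from 19.3 and 19.0 to 1.79 and 0.532 CPM.

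Among the leak channels, 4 of 7 tested fell and 0 rose, against 16% and 12.6% of all genes tested. Kcnk3, closed by acid, had 58.2 and 63.4 CPM in the WT_FI libraries against 0.398 and 1.59 CPM in those of WT_Cul (log2 difference -5.88 ± 0.78, edgeR adjusted p = 0.013). Kcnk2, which opens on stretch, had 36.0 and 28.0 CPM in the WT_FI libraries against 2.15 and 2.94 CPM in those of WT_Cul (log2 -3.63 ± 0.45, edgeR adjusted p = 0.012). Neither gene's groups overlapped. Kcnk5 was at 12.8 and 14.1 against 16.1 and 38.0 CPM (log2 1.03, edgeR adjusted p = 0.191), and rose without WT_Cul index 0 (log2 1.48, edgeR adjusted p = 0.0089).

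Among calcium- and sodium-activated channels and beta subunits, 7 of 11 tested fell and 0 rose, against 16% and 12.6% of all genes tested. Kcnma1, the large-conductance calcium-activated pore, had 34.6 and 114 CPM in the WT_FI libraries against 0.119 and 0.844 CPM in those of WT_Cul (log2 difference -7.18 ± 1.16, edgeR adjusted p = 0.017). Kcnmb1, its smooth muscle beta subunit, had 75.3 and 102 CPM in the WT_FI libraries against 1.16 and 2.03 CPM in those of WT_Cul (log2 -5.76 ± 0.51, edgeR adjusted p = 0.0096). Pore and beta subunit were thus low in the same libraries. Kcnt1, opened by sodium, was at 15.6 and 33.5 CPM against 0.0398 and 0.125 CPM (log2 -8.06 ± 0.83, edgeR adjusted p = 0.010), and Kcnmb2, another beta subunit, at 1.27 and 1.57 CPM against 0 and 0.0313 CPM (edgeR adjusted p = 0.017). The 1 fragment of Kcnmb2 in WT_Cul against 75 in WT_FI is a 81.2-fold ratio (95% counting interval 14.1 to 3249). Kcnn4 was at 15.1 and 11.1 against 23.6 and 21.5 CPM (log2 0.80, edgeR adjusted p = 0.178), and Kcnn3 at 21.7 and 40.1 against 16.5 and 9.22 CPM (log2 -1.24, edgeR adjusted p = 0.125). Kcnn3 fell without WT_Cul index 0 (log2 -1.76, edgeR adjusted p = 0.024).

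**Figure D2:**
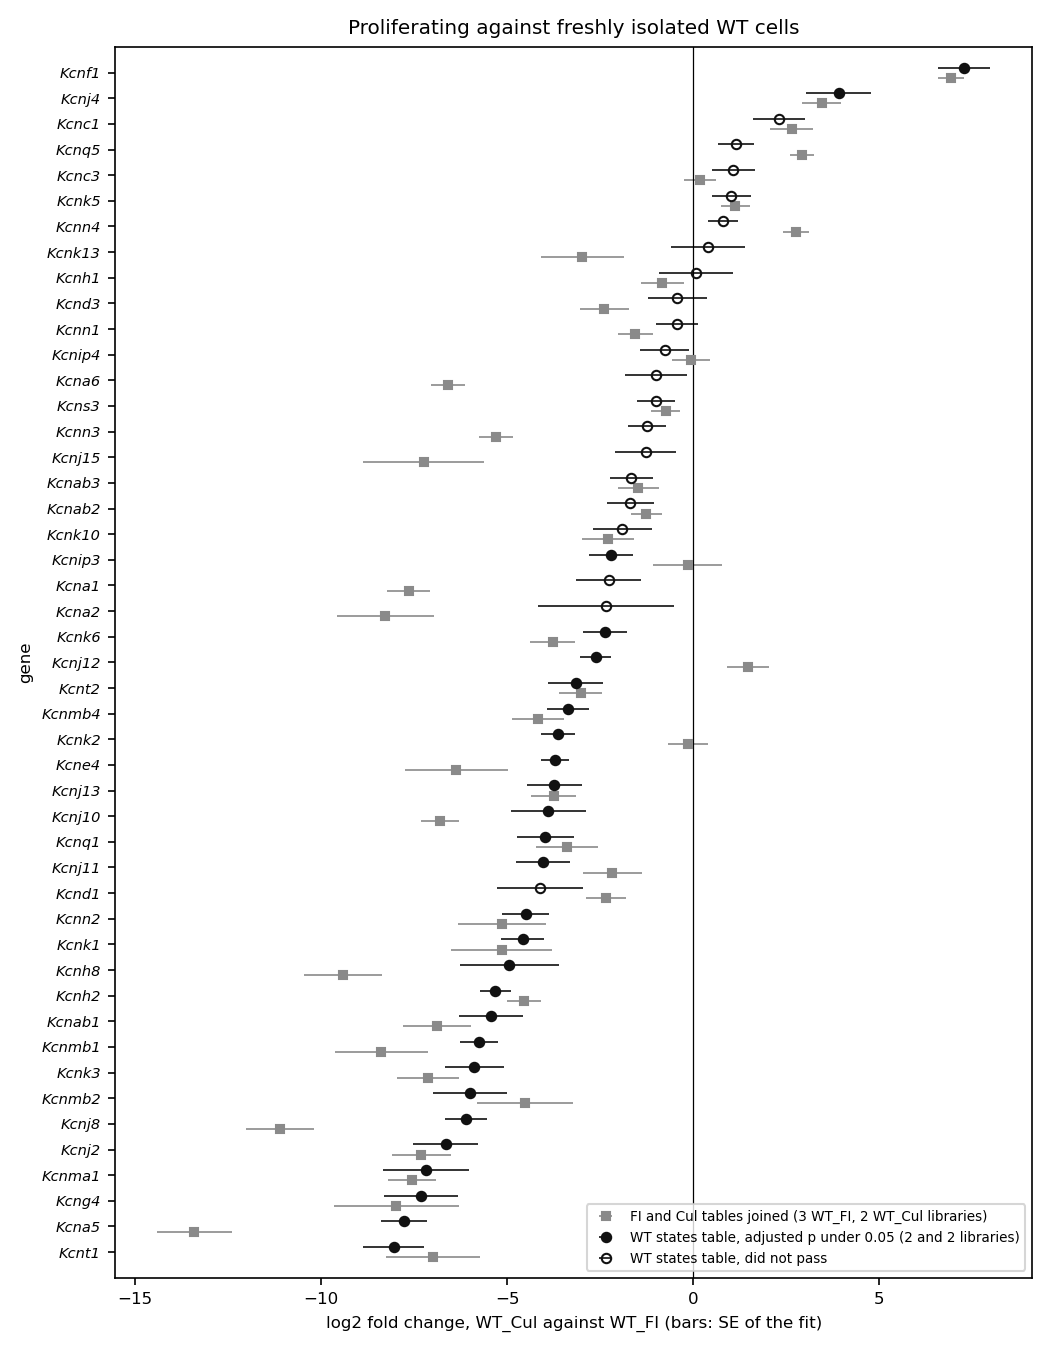
Points are log2 fold changes of WT_Cul against WT_FI for the potassium channel genes at 1 CPM or more that were tested in both sets, with the SE of the fit as bars. Circles are the WT states table (filled where the adjusted p was under 0.05) and squares the WT libraries of the FI and Cul tables. Kcnf1 lies at 7.29 and Kcnt1 at -8.06, and Kcnj12 lies on opposite sides of 0 in the 2 sets. The squares of Kcna5, Kcng4, Kcnh8 and Kcnj15, at 0 in WT_Cul of the Cul table, have no fixed size, and the circles of Kcng4, Kcnmb2 and Kcnq1 rest on 1, 1 and 2 fragments in WT_Cul.

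The WT libraries of the FI and Cul tables gave the same contrast in other samples, with table and state not separable there. In them 40 of 66 potassium channel genes tested fell and 8 rose, against 32.6% and 27.6% of all 15672 genes. The limit set by the count filter holds here too. Of the 33 genes that passed in the WT states table, 31 could be tested, 30 had the same sign and 27 passed with it. Kcnip1 and Kcns1 had too few counts there, and Kcnip3, Kcnj11, Kcnj12 and Kcnk2 did not pass. Kcnk2 had a log2 difference of -0.13 and Kcnj12, a strong inward rectifier, one of 1.48, the sign opposite to -2.62. Kcnq5 (2.93), Kcnn4 (2.76) and Kcnk5 (1.13) rose and Kcnn3 (-5.30) fell in these libraries, though none of the 4 passed in the WT states table.

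Markers of other cell types moved with this contrast. In the WT states table, 6 of 8 pericyte and smooth muscle markers fell, as did 7 of 8 fibroblast, 6 of 8 endothelial and 3 of 4 lymphocyte markers. In the other lists, 2 of 8 Schwann cell, 1 of 8 macrophage, 2 of 10 satellite cell and 1 of 8 mature myofibre markers fell. Of 13 muscle differentiation genes, 1 fell and 2 rose. Over all genes tested, 16% fell. The summed pericyte and smooth muscle level was 22556 and 31840 CPM in WT_FI and 2146 and 2177 CPM in WT_Cul. It was 3369 to 8155 CPM in WT_FI of the FI table and 59.3 to 114 CPM in WT_Cul of the Cul table. The smooth muscle genes Myh11 (6124 and 12406 CPM in WT_FI, 25.7 and 164 CPM in WT_Cul) and Rgs5 (1048 and 1604 against 1.9 and 15.0 CPM) were among them. Their part in the fall of the channel genes was not tested.

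Some channel genes differed between the WT_FI libraries of the 2 tables along with these markers. Fibroblast (28666 and 20403 CPM), Schwann cell (2185 and 2336 CPM) and muscle differentiation (795 to 880 CPM) sums were also higher in the WT states table. In the FI table they were 4895 to 6742, 833 to 920 and 203 to 436 CPM. Endothelial (378 to 444 against 207 to 735 CPM), macrophage (194 to 236 against 146 to 354 CPM) and lymphocyte sums overlapped. Mature myofibre sums were lower in the WT states table (84.5 to 176 against 278 to 300 CPM). Kcna5 averaged 151 CPM in the WT states table and 28.2 CPM in the FI table, Kcnab1 185 and 19.5, Kcnmb1 88.7 and 11.4, Kcnk3 60.8 and 10.4, and Kcnj2 133 and 21.8 CPM. Kcne4 (214 and 254 CPM) and Kcnj8 (136 and 199 CPM) were not higher in the WT states table, where the pericyte, fibroblast and Schwann cell sums were. The part of any marker list in these levels was not tested. Within the FI table, WT_FI index 2 had the highest pericyte and smooth muscle (8155 CPM), endothelial (735 CPM) and macrophage (354 CPM) sums of the 6 libraries. It also had the highest Kcna5 (43.8 CPM), Kcnab1 (32.2 CPM), Kcnmb1 (21.0 CPM) and Kcnk3 (18.0 CPM) of the 6. Kcnj8 was highest in that library too, while Kcne4 was not. Its fibroblast (5185 CPM) and Schwann cell (865 CPM) sums were not the highest, and its satellite cell sum (5734 CPM) was the lowest. These tables were scaled separately, so levels set across them are only descriptive.

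**Figure D3:**
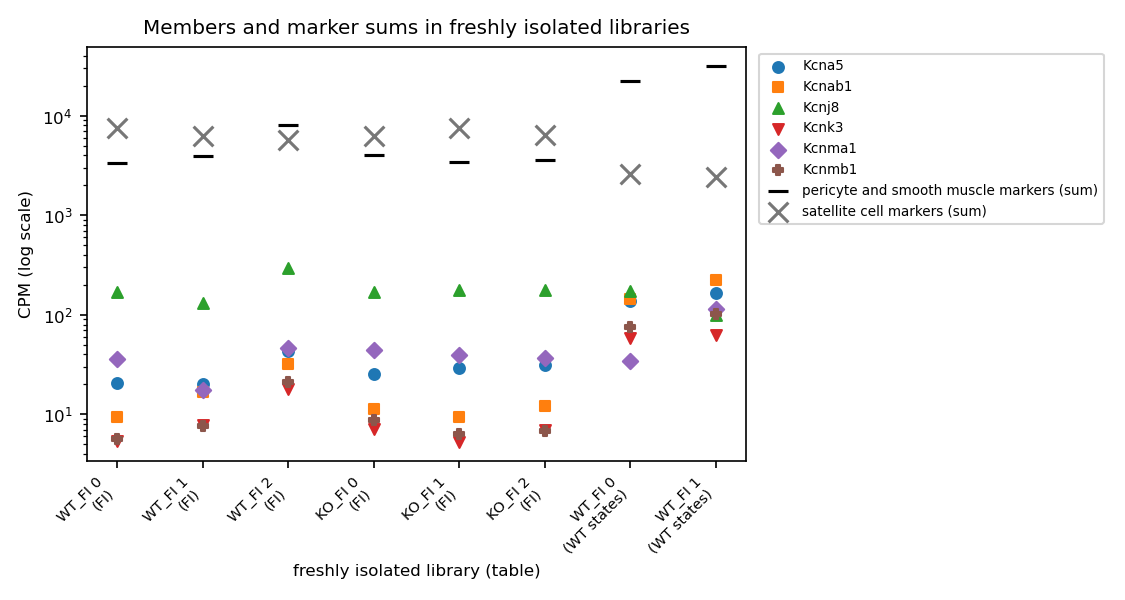
CPM on a log axis of 6 potassium channel genes and of the summed pericyte and smooth muscle markers (bars) and satellite cell markers (crosses) in the 8 freshly isolated libraries. The pericyte sum lies above the satellite cell sum in the 2 WT_FI libraries of the WT states table and in WT_FI index 2 of the FI table. In the WT states libraries Kcna5, Kcnab1, Kcnk3 and Kcnmb1 are higher than in the FI table, while Kcnj8 is not. Within the FI table, Kcnj8 is highest in WT_FI index 2.

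Proliferating WT libraries differed too. In the WT states table, the summed muscle differentiation genes were at 3917 CPM in WT_Cul index 0 and 271 CPM in index 1, and those of mature myofibres at 380 and 33.0 CPM, against 80.8 and 148 CPM and 14.5 and 16.9 CPM in WT_Cul of the Cul table. Index 0 is the library without which Kcnq5, Kcnk5 and Kcnn3 passed in WT_Cul against WT_FI, and the part of the muscle genes in this was not tested. In WT_Cul index 1 of the WT states table, Kcna1, Kcna6 and Kcna2, pore subunits of neurons and their axons, were at 116, 63.6 and 19.9 CPM. They were at 20.2, 10.5 and 0.159 CPM in index 0, and under 1 CPM in all 4 libraries of the Cul table. The summed level of 8 Schwann cell markers was 773 CPM in index 1, 270 CPM in index 0 and 11.0 to 21.0 CPM in the Cul table. Their part in these levels was not tested.

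Partner genes of the membrane potential were read in the same contrast. Over all genes tested, 16% fell and 12.6% rose, and each list below is to be read beside these shares. Of 12 genes tested for the sodium-potassium pump, which builds the potassium gradient, 4 fell and 1 rose. Atp1b2 fell by 6.74 on the log2 scale, and the regulators Fxyd1 and Fxyd7 fell by 2.61 and 3.91. Of 6 other potassium channel subunits tested, 4 fell and 0 rose. Abcc8 and Abcc9, the sulfonylurea receptors that pair with Kcnj11 and Kcnj8, fell (log2 -4.72 and -5.91), and Lrrc55 and Lrrc52, which modify Kcnma1, fell too. Abcc9, also one of the pericyte markers, averaged 380 CPM in WT_FI and 6.18 CPM in WT_Cul. Of 16 calcium channel subunits tested, 7 fell and 1 rose, with Cacna1h (-7.56), Cacna1d (-4.90), Cacnb4 (-3.58) and Cacna2d4 (1 fragment in WT_Cul against 155 in WT_FI) among those that fell. Of 21 sodium, cation and chloride channel genes tested, 11 fell and 1 rose, among them Scn2b (-7.96), Scn4b (-9.09) and Clcn2 (-2.46), and Hcn4 averaged 5.66 CPM in WT_FI with no fragment in WT_Cul. Of 5 cation-chloride cotransporters tested, 0 passed. Cacna2d4 and Hcn4 reached the count filter through WT_FI alone and could only fall.

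KO and WT were compared in each state, the contrasts from which the family was chosen. By edgeR 0 of 15146 genes passed in FI, 0 of 13963 in Cul and 0 of 14482 in Diff (0% in each), with 621, 112 and 27 genes at an unadjusted p under 0.05, while DESeq2 gave 117, 3 and 0 genes. The median log2 difference of the potassium channel genes tested was -0.11 in FI (62 genes), -0.04 in Cul (37) and 0.27 in Diff (43), against -0.03, 0.02 and -0.01 over all genes. Groups did not overlap for 2 genes higher and 1 lower in KO in FI, where 5.55% and 3.54% of all genes did so. In Cul, 1 was higher and 5 were lower (background 11.7% and 11.2%), and in Diff 2 were higher and 4 lower (6.54% and 6.77%).

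Kcne4 was lower in KO in every index pair. In FI it was at 282, 218 and 262 CPM in WT (indices 0, 1 and 2), against 85.2, 67.7 and 57.9 CPM in KO, means of 254 ± 32.9 and 70.3 ± 13.8 CPM (SD, n = 3). The log2 difference was -1.86 ± 0.18 (SE) and lay between -2.02 and -1.74 when any 1 library was left out. All KO values were below all WT values. In Diff, Kcne4 was at 3.17 and 2.99 CPM in WT, against 0.304 and 0.589 CPM in KO (log2 -2.78 ± 0.70), again apart. In Cul it was at 0.179 and 4.69 CPM in WT, against 0.152 and 0.969 CPM in KO (log2 -2.11 ± 1.60), where the groups overlapped and the sign turned to 1.64 without WT_Cul index 1. In FI, the 8 pericyte and smooth muscle markers all had estimates below 0 in KO (median log2 -0.31) and 0 passed, with summed levels of 3369 to 8155 CPM in WT and 3463 to 4020 CPM in KO. In Diff, all 8 fibroblast markers (median log2 0.78, summed 429 and 280 CPM in WT against 711 and 588 CPM in KO) and the 6 pericyte markers tested (1.23, summed 170 and 1586 against 306 and 3252 CPM) had estimates above 0, and 0 passed. All 13 muscle differentiation genes (median log2 0.98) and 7 of 8 mature myofibre genes (1.42) also had estimates above 0 in Diff, and 0 passed. The part of these markers and muscle genes in the Kcne4 values was not tested. Kcnj8, the other gene at this level in FI, was at 168, 132 and 297 CPM in WT, against 169, 178 and 176 CPM in KO, overlapping.

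Kcnq5, a pore subunit of the M-current, had the largest of its 3 differences in Cul. It was at 27.6 and 18.7 CPM in WT_Cul, against 6.18 and 6.47 CPM in KO_Cul (means 23.1 ± 6.34 and 6.32 ± 0.208 CPM, n = 2), a log2 difference of -1.87 ± 0.30. The KO values were close together and below both WT values. In FI it was at 4.55, 2.77 and 4.38 CPM in WT, against 3.66, 2.05 and 2.83 CPM in KO (log2 -0.46), with overlap. In Diff the WT libraries had 9.95 and 3.29 CPM against 4.30 and 4.93 CPM in KO (log2 -0.52), with overlap, and the sign turned to 0.48 without WT_Diff index 0. In KO_Cul, estimates were above 0 for all 8 fibroblast markers (median log2 1.73, 0 passed) and for the 6 pericyte and smooth muscle markers tested (0.79, 0 passed). The summed fibroblast level was 195 and 76.9 CPM in WT_Cul and 247 and 121 CPM in KO_Cul, and the pericyte level 114 and 59.3 against 137 and 135 CPM. The part of these markers in the Kcnq5 values was not tested.

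**Figure D4:**
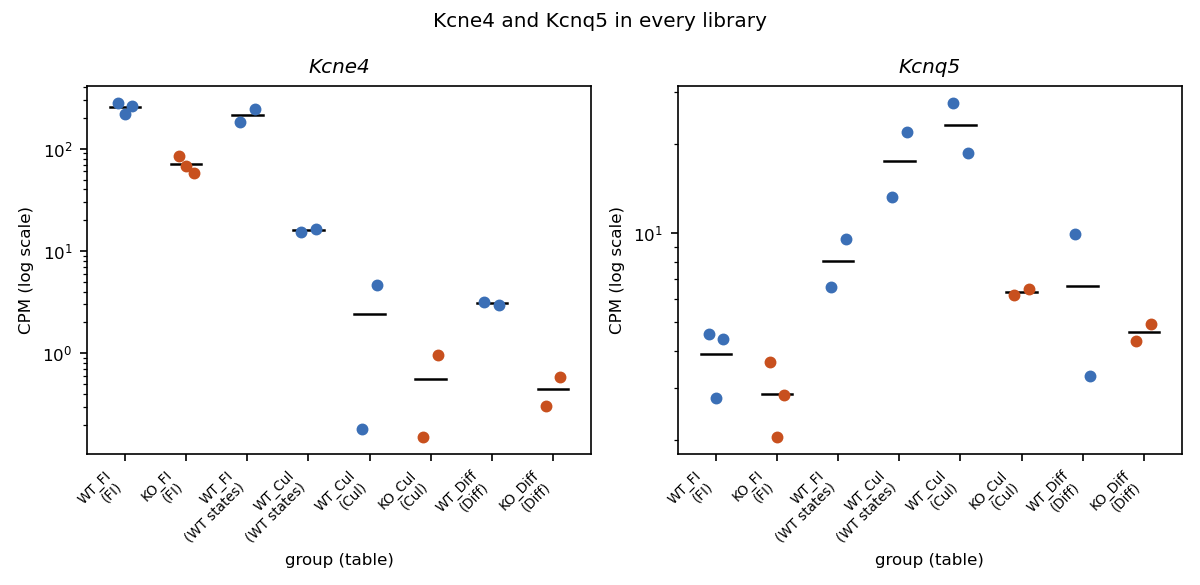
CPM on a log axis of Kcne4 and Kcnq5 in each library (points, WT blue and KO red) with the group mean as a bar. Kcne4 separates KO from WT in FI (57.9 to 85.2 against 218 to 282 CPM) and in Diff, and Kcnq5 separates them in Cul (6.18 and 6.47 against 18.7 and 27.6 CPM).

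Kcnk2 was the other gene lower in KO in all 7 index pairs of the FI, Cul and Diff tables. These were 2 of the 32 potassium channel genes tested in all 3, and 1.51% of 13259 genes did the same. Kcne4 is among the 2 by the choice of the family, so this count cannot be read against that share. Kcnk2 was at 5.53, 2.51 and 2.16 CPM in WT_FI, against 4.36, 0.978 and 0.943 CPM in KO_FI, at 2.86 and 1.97 against 1.76 and 1.54 CPM in Cul, and at 1.94 and 1.35 against 0.795 and 0.916 CPM in Diff. The groups overlapped in FI and not in Cul or Diff. No potassium channel gene was higher in KO in all 7 pairs, as 1.92% of all genes were. Of the 32, 4 were lower in at least 6 pairs (Kcnq5 and Kcnn4 beside Kcne4 and Kcnk2) and 2 were higher in at least 6 (Kcnh2 and Kcnk13), against 7.87% and 9.92% of all genes. Kcne4 and Kcnq5 were chosen for being lower in KO, which raises the count of 4.

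The other named genes whose groups were apart, with at least 1 CPM in the higher group, lay at a few CPM or less. In FI, Kcng2, a silent subunit, was at 0.939, 0.700 and 0.467 CPM in WT, against 1.57, 1.25 and 1.17 CPM in KO (log2 0.91). In Cul, Kcnn3 was at 2.78 and 2.42 against 1.23 and 1.91 CPM (log2 -0.73, and -0.46 without KO_Cul index 0). In Diff, Kcnip3, a calcium sensor that also binds DNA, was at 0.826 and 0.769 against 1.30 and 1.22 CPM (log2 0.65). The inward rectifier Kcnj14 was at 0.826 and 1.45 CPM in WT_Diff, against 0.818 and 0.458 CPM in KO_Diff (log2 -0.84, from -1.31 to -0.37 when 1 library was left out). Kcnj4, another, was at 1.59 and 2.70 against 1.53 and 1.39 CPM (log2 -0.56, from -0.89 to -0.12). Both genes differed little in index 0 (log2 -0.01 and -0.04, with 0.5 CPM added) and more in index 1 (-1.03 and -0.76), the index with high muscle gene expression, and both were nearest to 0 without WT_Diff index 1.

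The KO effect was also compared between states. In a model over the joined FI, Cul and Diff tables, 0 of 74 potassium channel genes and 0 of 16698 genes passed by edgeR for any difference of the KO effect between states. At an unadjusted p under 0.05 there were 196 genes for Cul minus FI, 211 for Diff minus FI and 245 for Diff minus Cul. No other tool was run on these. By edgeR no gene passed for KO against WT within any state, and each arm held few libraries. The counts of 0 thus cannot show that the KO effect was alike across states. Each state lay in its own table, so state and table cannot be told apart here. The family was chosen for its KO values, so its count is no test of the family.

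WT_Diff was compared with WT_Cul by joining the Cul and Diff tables, so table and state cannot be told apart. By edgeR 0 of 42 potassium channel genes and 0 of 14196 genes passed (0%), with 1550 genes at an unadjusted p under 0.05. DESeq2 gave 823 genes (5.8%), 5 of them potassium channel genes, which were Kcnh2 (3.08), Kcnk13 (4.43) and Kcnn3 (2.67) higher and Kcnf1 (-2.77) and Kcnj12 (-2.37) lower. Without WT_Diff index 0, edgeR passed 2372 genes (16.1%) and 5 of 44 potassium channel genes, namely Kcnc1 (2.53), Kcnh2 (3.72) and Kcnn3 (3.35) higher and Kcnf1 (-2.52) and Kcnq5 (-2.90) lower. Groups did not overlap for 6 genes higher and 8 lower, where the background was 24.3% and 22.4%.

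Within Diff, several channel genes were higher in index 1, the library with high muscle gene expression, in both genotypes. The share of all genes with this order was not counted. Kcnn3 was at 6.71 and 28.2 CPM in WT (indices 0 and 1), against 8.57 and 114 CPM in KO. Kcnk13, a leak channel, was at 0.425 and 10.2 CPM in WT, against 1.15 and 35.3 CPM in KO. Kcnj11 showed the same order, with 0.218 and 4.00 CPM in the WT libraries and 0.245 and 6.01 CPM in the KO ones. Kcnn4 had the opposite order, at 90.9 and 37.2 CPM in WT, against 74.5 and 16.8 CPM in KO. The summed muscle genes had the order of Kcnn3. So did the pericyte and smooth muscle sums (170 and 1586 CPM in WT, 306 and 3252 CPM in KO). Schwann cell sums (14.6 and 25.4 CPM in WT, 23.1 and 118 CPM in KO) had it too, as had mature myofibre, endothelial and satellite cell sums. Fibroblast and macrophage sums had the opposite order. The part of any of these lists in the channel gene levels was not tested.

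**Figure D5:**
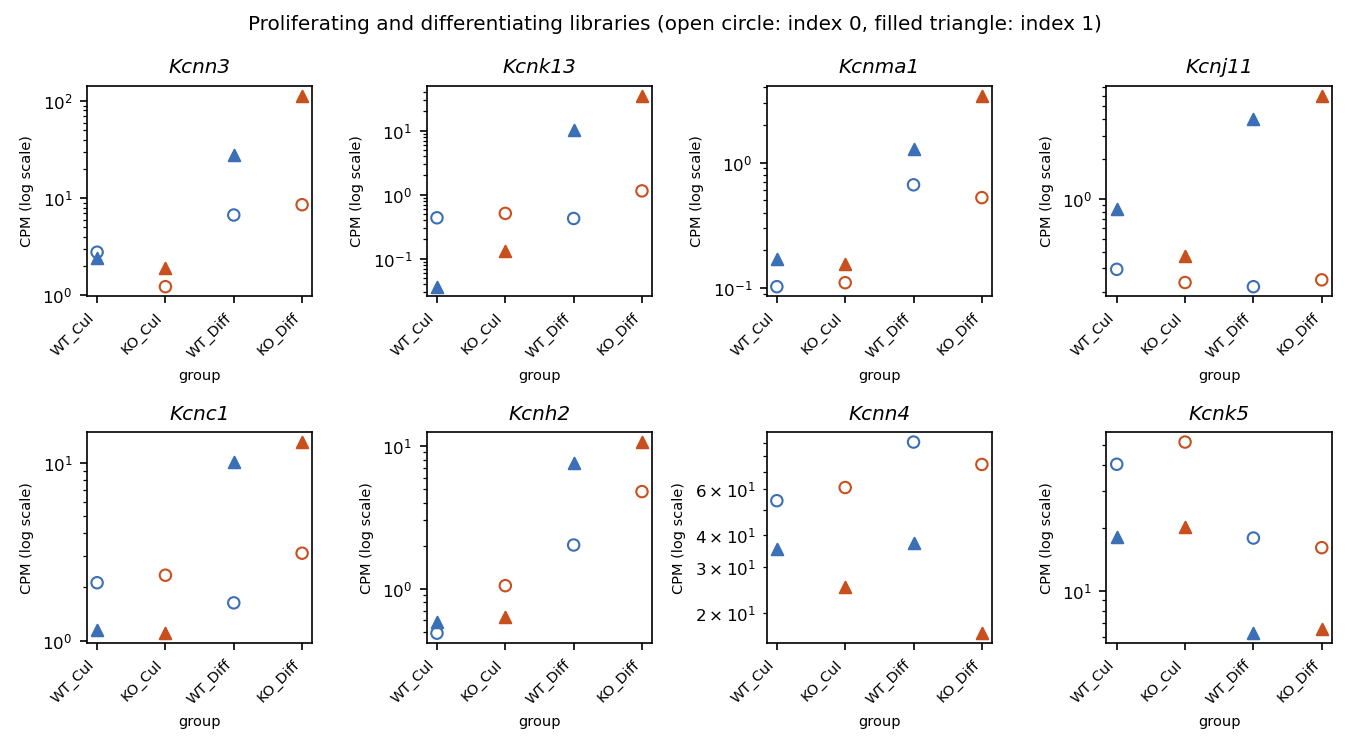
CPM on a log axis of 8 potassium channel genes in the Cul and Diff libraries of WT (blue) and KO (red), with an open circle for index 0 and a filled triangle for index 1. In Diff, Kcnn3, Kcnk13, Kcnma1, Kcnj11, Kcnc1 and Kcnh2 are higher in index 1 of both genotypes, and Kcnn4 and Kcnk5 are lower.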

How the data were processed

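RNA of FACS-sorted satellite cells was sequenced as polyA libraries, 18 of the 28 samples, and the 10 ChIP and input samples were not analysed here. Per the file headers, the authors' 4 tables give, per gene and library, estimated counts (raw fragments) and FPKM scaled within each table by the authors. The submitters' processing notes list, without roles or versions, the tools TopHat, Bowtie, Cuffdiff and SICER and the build mm9. The letter A in the tables was read as Cul because the other states were accounted for. All per-sample columns were used (0 left over). Genes without status OK throughout a table were dropped from it (22 in FI, 12 in Cul, 19 in Diff, 27 in WT states), and none was a potassium channel gene.

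Estimated counts were rounded and tested with edgeR 4.0.16 in R 4.3.3 (quasi-likelihood F test, robust, TMM, filterByExpr, Benjamini-Hochberg, threshold 0.05), with DESeq2 1.42.0 and limma 3.58.1 (log2 of FPKM plus 1 or 0.1) as alternatives and matplotlib 3.10.9 for figures. The fits were also tested on simulated data. Pairs of libraries within a group differed by a chi-square per degree of freedom of at least 26.8, so all were counted separately. Same-index FI libraries deviated together (correlations 0.87, 0.72 and 0.54), so the index was also fitted as a block, which left 0 genes and 0 potassium channel genes passing in FI. Indices 1 and 2 also deviated together across genotypes (0.57 and 0.32), so the index does not set those apart. Depth limits low genes, and floors cover counting error only. No source says that counting used strand, and near-identical genes may share fragments.

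The family, gene lists and tests were chosen with earlier results of these data known. Named by rule were Kcne4, Kcnq5, up to 12 genes per direction that passed in WT_Cul against WT_FI, the 3 highest by FPKM per condition, non-overlapping KO genes at 1 CPM or more (up to 5 per direction), genes next to the 1 CPM limit and up to 4 partner genes per list. Other genes were chosen after their values were seen. Values of 3 genes are left out of the text, 2 of them also of the plots, while counts of genes include them. Searches covered 200 bases before each start.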

Additional observations from a re-analysis of the deposited data

How the results depend on the processing

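In WT_Cul against WT_FI, potassium channel genes passing numbered 33, and 24 to 48 over the alternatives, while all genes moved from 4200 to 9421 in the other WT libraries. Leaving out 1 library gave 2063 (without WT_FI index 1) to 8050 genes (without WT_Cul index 1), also 2108 without WT_FI index 0, and 24 to 43 potassium channel genes. In KO_FI against WT_FI, the replicate block passed 0 genes, and 3 with the count filter given the blocked design (chosen after seeing the data), none a potassium channel gene. DESeq2 passed 117 of 15146 genes and 1 of 62 potassium channel genes (Kcne4) there, and limma 1 and 3 genes. In KO_Cul against WT_Cul, DESeq2 passed 3 of 13963 genes and 1 of 37 potassium channel genes (Kcnq5), limma 5 and 9 genes, and the block 3. In Cul, Diff and WT states the libraries share only an index (same-index correlations 0.82, 0.82 and 0.47). The block gave 147 of 14482 genes (131 higher, 16 lower) and 4 of 43 potassium channel genes in Diff, Kcne4 among them. Kcne4 and Kcnq5 were chosen for being lower in KO, so KO calls on them are no test of the family. In WT states the block gave 6176 of 14680 genes and 37 of 58 potassium channel genes. In WT_Diff against WT_Cul, DESeq2 gave 823 genes and 5 potassium channel genes, fitting without a count filter 56 genes, and leaving out 1 library 0 to 2372 genes and 0 to 5 potassium channel genes. There, leaving out 1 library reversed Kcne4 (range -0.69 to 4.02), Kcnj4 (-0.31 to 0.60, also -0.26), Kcnip3 (-2.42 to 0.94), Kcnn4 (-0.35 to 0.96) and Kcnj2 (-0.93 to 2.63). The causes were not tested. Where an arm kept 1 library, it is assumed to vary like the others. With plain library totals 54 genes reached 1 CPM, and 63 and 42 reached 0.5 and 2 CPM. Genes under 1 CPM rest on few fragments.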
